A study of Mus musculus with 6 samples.

Results

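The interleukins are secreted signalling proteins of the immune system, and their receptors are membrane proteins that carry the signal into the responding cell. The genes described here are those whose probes, control spots left out, carry a gene name that begins with Il and a digit. This gave 102 probes for 83 genes among 39429 probes on the array, of which 38 are cytokines, 38 are receptor chains and 7 are regulators (antagonists, decoy receptors, binding proteins and an enzyme). The array carries 1 probe for 66 of the genes, 2 for 15 and 3 for 2. RefSeq now names Il28b as Ifnl3 and Il28ra as Ifnlr1, which are an interferon-lambda and its receptor chain, and both were kept because the array's names fit the rule.

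Expression was measured in non-tumour liver tissue of 6 male C57BL/6 mice, 3 on a control diet and 3 on a diet with moderately restricted carbohydrate, all 5 weeks old at the start. Every mouse of both diets had received, through a tail vein by hydrodynamic injection (a fast injection of a large volume that brings DNA into liver cells), a transposon vector with human HRAS G12V, a short hairpin RNA against p53 and GFP4. No mouse without the vector was analysed here, so every value describes a liver that also carried the tumour model. The sample labels give 1 week of feeding before the injection and 5 weeks of diet. The series text gives 2 weeks and 4 weeks. The series title and design text also put phytochemicals into the restricted diet. The sample titles call both diets supplemented, the control diet included, without naming the supplement.

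Cytokines of the IL-1 family signal through receptors with a shared accessory chain to NF-kappaB, and several of them are stored or cut before release. Most other interleukins bind paired receptor chains that switch on Janus kinases and STAT transcription factors, and shared chains (gp130, the common gamma chain, the common beta chain) tie the receptors into families. In the liver, Kupffer cells and other macrophages are a known source of IL-1 and IL-6, and hepatocytes answer IL-6 with acute-phase proteins.

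Levels below are log2 signals relative to the array's 75th percentile, and a difference is the level on the restricted diet minus that on the control diet, with its SE (n = 3 mice per diet) and limma's p adjusted by Benjamini-Hochberg over 19616 features. The 75th percentile of signal ran from 287 to 574 over the 6 arrays, and 23527 to 25815 probes per array were well above background. Across features, arrays of the same diet correlated at 0.976 to 0.988 and arrays of different diets at 0.925 to 0.947, and the median feature was 0.12 higher on the restricted diet. Slide 1 held all 3 control mice and restricted mouse 1, and slide 2 held restricted mice 2 and 3, so a fit with slide as a block, or on slide 1 alone, compares restricted mouse 1 with the controls. Of 8 hepatocyte markers, 8 were well above background in both diets, and 5 were saturated on at least 1 array. The tissue is bulk, so fewer cells of a type and less RNA per cell cannot be told apart.

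The results below turn most on Il1b, Il6, Il33 and the IL-33 receptor gene Il1rl1, so the 250 bases before each of their RefSeq transcript starts (GRCm38.p6) are shown first. Il1b lies on the minus strand at chr2:129371140-129371389 and Il6 on the plus strand at chr5:30012864-30013113. Both starts of Il33 (chr19:29924863-29925112 and chr19:29945540-29945789) and of Il1rl1 (chr1:40429320-40429569 and chr1:40439379-40439628) lie on the plus strand. Capitals mark matches, on either strand, to a C/EBP motif (TTGCNNAA), an AP-1 motif (TGANTCA) or an NF-kappaB motif, and the STAT motif TTCNNNGAA and the PU.1 motif AGGAAGT had no match in these 6 sequences.
Il1b: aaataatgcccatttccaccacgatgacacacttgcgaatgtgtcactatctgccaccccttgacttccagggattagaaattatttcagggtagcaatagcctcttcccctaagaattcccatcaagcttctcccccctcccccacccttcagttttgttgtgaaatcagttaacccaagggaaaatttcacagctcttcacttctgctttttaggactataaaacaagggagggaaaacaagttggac
Il6: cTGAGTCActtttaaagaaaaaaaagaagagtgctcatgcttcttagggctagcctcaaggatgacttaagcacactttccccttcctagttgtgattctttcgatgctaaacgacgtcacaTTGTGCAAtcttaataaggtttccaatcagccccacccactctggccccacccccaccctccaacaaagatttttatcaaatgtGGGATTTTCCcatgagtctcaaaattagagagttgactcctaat
Il33 start 1: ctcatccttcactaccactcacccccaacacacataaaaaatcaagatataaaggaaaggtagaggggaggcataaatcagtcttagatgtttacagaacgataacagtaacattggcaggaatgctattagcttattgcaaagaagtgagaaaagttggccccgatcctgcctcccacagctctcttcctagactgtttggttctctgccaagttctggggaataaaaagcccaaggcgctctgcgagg
Il33 start 2: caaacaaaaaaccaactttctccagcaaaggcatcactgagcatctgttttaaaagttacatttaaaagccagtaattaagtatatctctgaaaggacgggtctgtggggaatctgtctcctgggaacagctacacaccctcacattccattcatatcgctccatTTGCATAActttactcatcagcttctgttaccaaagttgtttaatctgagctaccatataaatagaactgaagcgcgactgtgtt
Il1rl1 start 1: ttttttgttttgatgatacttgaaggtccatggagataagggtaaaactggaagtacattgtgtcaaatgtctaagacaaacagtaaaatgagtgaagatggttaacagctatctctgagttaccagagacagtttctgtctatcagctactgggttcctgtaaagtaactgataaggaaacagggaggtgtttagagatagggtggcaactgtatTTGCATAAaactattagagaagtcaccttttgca
Il1rl1 start 2: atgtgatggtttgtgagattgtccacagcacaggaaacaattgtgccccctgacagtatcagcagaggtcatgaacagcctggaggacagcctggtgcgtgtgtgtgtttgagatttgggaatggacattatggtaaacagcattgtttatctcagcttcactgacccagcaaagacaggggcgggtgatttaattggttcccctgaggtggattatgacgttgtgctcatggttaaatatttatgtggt
In Il6, the matches are AP-1 at 249 to 243 bases before the start, C/EBP at 128 to 121 and NF-kappaB at 44 to 35. The second start of Il33 has a C/EBP match at 85 to 78 bases and the first start of Il1rl1 has one at 34 to 27. No match overlaps another. Among all 32851 promoters of the table, the same length of sequence held the C/EBP motif in 9.56%, the AP-1 motif in 6.75%, the NF-kappaB motif in 7.25%, the STAT motif in 7.02% and the PU.1 motif in 7.69%. RefSeq's table held 81 promoters for 66 of the 83 genes. A match is a string of letters and not a measured site.

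Fewer cytokines than receptor chains were detected. On all 6 arrays, 12 of 38 cytokines, 21 of 38 receptor chains and 4 of 7 regulators had a probe well above background, and 18 cytokines, 4 receptor chains and 2 regulators had none on any array. The cytokines with no such probe were Il1f6, Il1f10, Il2, Il3, Il4, Il5, Il7, Il9, Il12b, Il13, Il17a, Il17b, Il17c, Il19, Il21, Il23a, Il25 and Il31, which include the classic products of T helper cells. The receptor chains were Il1rapl1, Il1rapl2, Il20ra and Il23r, and the regulators were Il1f5 and Il22ra2. A probe that is not well above background leaves the level unknown below that limit.

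**Figure D1:**
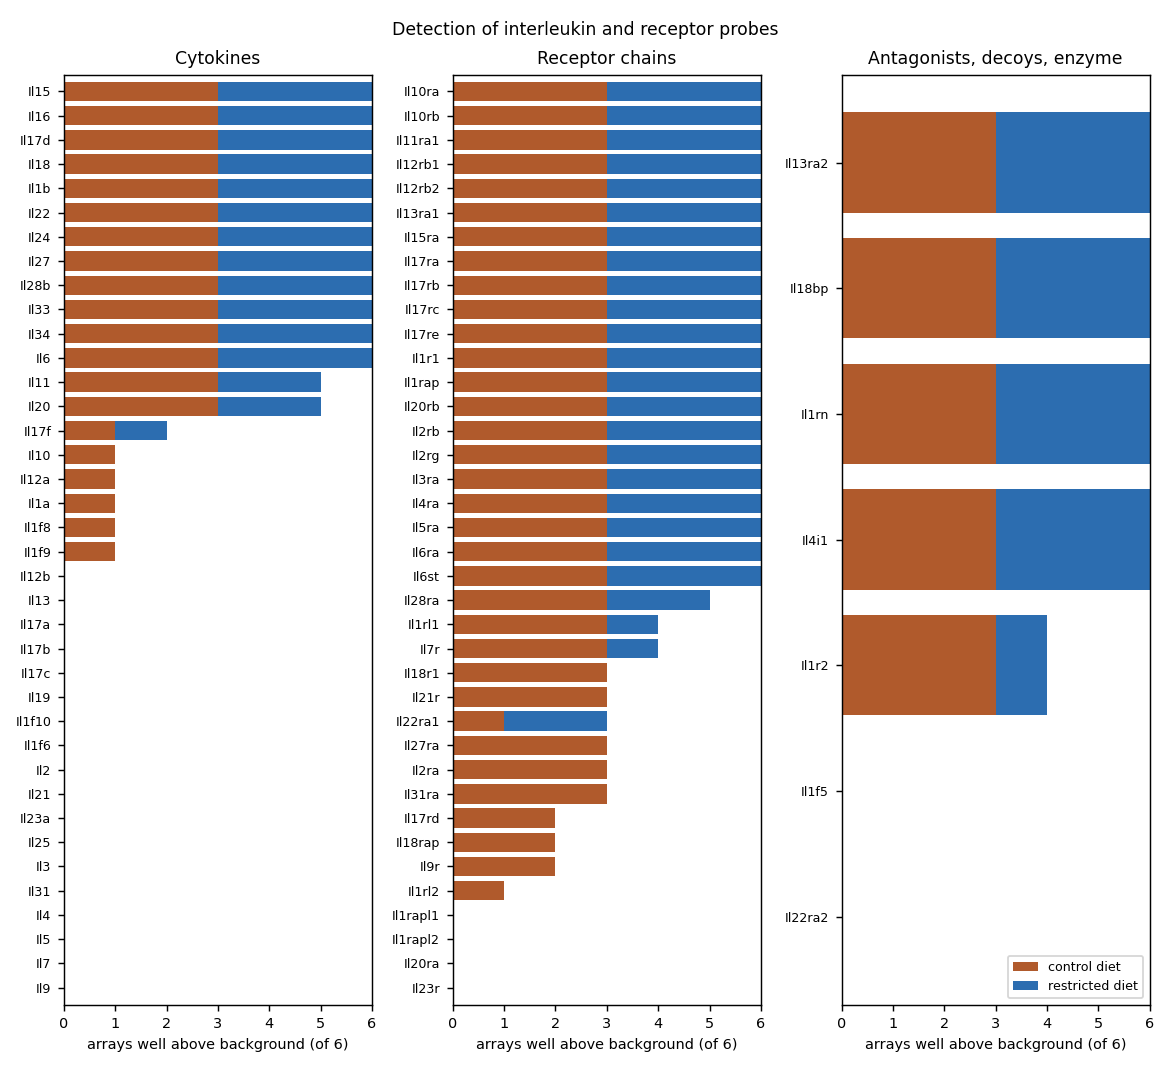
Number of the 6 arrays on which any probe of each gene was well above background (x axis), for cytokines, receptor chains and regulators, with control mice in brown and restricted mice in blue. Bars of 6 are reached by 12 cytokines, 21 receptor chains and 4 regulators, and the bars that stop at 3 are mostly all brown.

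A gene entered the test when, in at least 1 diet, every array that measured its probe showed it well above background. This left 48 genes (14 cytokines, 29 receptor chains and 5 regulators), of which 11 passed through the control arrays alone and 0 through the restricted arrays alone. Over all features, 27.5% were called at an adjusted p under 0.05, 12.8% as lower and 14.6% as higher on the restricted diet. Of the 48 genes, 19 were called lower and 5 higher. Since a gene that passed through the control arrays alone was dim on the restricted diet from the start, the 37 genes well above background on all 6 arrays are also given. With the fit limited to such features, 11 of these 37 were lower and 5 higher, against 10.2% lower and 15.2% higher among all 17754 features. In the fit over 19616 features the median difference of the 37 genes was -0.47, and that of all features well above background on all 6 arrays was 0.16. Signals of the diets did not overlap for 23 of the 48 genes in the lower direction and 6 in the higher, where 18.8% and 26.1% of all features did so.

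Among the cytokines, Il6, Il33 and Il1b were lower on the restricted diet and Il22 and Il24 were higher. Il1b encodes IL-1 beta, which is cut by caspase-1 before release and drives fever and neutrophil recruitment. Its levels were -0.99, 0.06 and 0.92 in control mice 1 to 3 and -2.07, -1.59 and -2.31 in the restricted mice (probe at mm9 chr2:129190347-129190406). Every restricted mouse lay below every control mouse, and the controls were spread more widely. Il1b was 3.96-fold lower (difference -1.99, SE 0.47, limma adjusted p = 0.0207). The call ended with slide as a block (adjusted p = 0.11), on slide 1 alone (0.138), and without control mouse 2, restricted mouse 1 or restricted mouse 3 (adjusted p = 0.0674, 0.0552 and 0.0617 from limma).

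Il33 encodes IL-33, an alarmin kept in the nucleus of structural cells and freed when they are damaged. It measured -0.74, -0.38 and -0.61 in control mice and -3.13, -1.75 and -2.30 in restricted mice (chr19:30035101-30035160, mm9). The diets did not overlap, and restricted mouse 1 was the lowest. The difference was -1.81 (SE 0.35, limma adjusted p = 0.00925), or 3.52-fold lower, and -1.13 with normexp background correction. Il18, a cytokine that prompts interferon-gamma release, stood at 1.55, 1.93 and 1.53 against 1.15, 1.06 and 1.13, with no overlap. Its difference of -0.56 (SE 0.18) did not pass (limma adjusted p = 0.0593). It passed with normexp background correction, quantile normalization and array weights (limma adjusted p = 0.0459, 0.0269 and 0.0194). Il1a, the sister cytokine of Il1b, was well above background on 1 control array and was not tested, with levels of -6.44, -4.68 and -5.37 against -5.94, -5.53 and -4.82. Il1f8 and Il1f9, epithelial members of the family, were likewise well above background on 1 control array each.

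Il6 showed the largest difference of the tested cytokines. It encodes IL-6, which acts on hepatocytes through Il6ra and gp130. Its levels were -1.38, 0.24 and -0.85 in control mice and -4.34, -4.08 and -4.34 in restricted mice (chr5:30346367-30346426, mm9). All 3 restricted mice sat close together, well under the lowest control. Il6 stayed well above background on all 6 arrays and was 12.1-fold lower (difference -3.59, SE 0.39, limma adjusted p = 0.00109), which became -1.86 with normexp background correction. Il27, a subunit that pairs with Ebi3 to form IL-27, measured 1.20, 0.83 and 1.71 against 0.73, 0.18 and -0.10. These did not overlap, and the difference of -0.97 (SE 0.30) did not pass (limma adjusted p = 0.0529). Il11, a gp130 cytokine, differed by -0.09 (SE 0.27), with overlapping diets. Il12a, a subunit of IL-12, was well above background on 1 control array only.

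The cytokines that were higher belong to the IL-10 family, and both IL-22 and IL-24 act mainly on epithelial cells. Il22 levels, on a dim probe at chr10:117642873-117642932 (mm9), were -4.55, -4.97 and -4.05 in control mice and -3.69, -3.43 and -3.04 in restricted mice. Il24 levels (chr1:132783875-132783934) were -4.72, -4.14 and -4.18 against -3.37, -3.45 and -2.95. For both genes each restricted mouse lay above each control mouse. Il22 was 2.20-fold higher (difference 1.14, SE 0.29, limma adjusted p = 0.026) and Il24 was 2.13-fold higher (1.09, SE 0.24, adjusted p = 0.0148). Both calls were lost with normexp background correction (limma adjusted p = 0.0922 and 0.112), with slide as a block (0.229 and 0.124) and on slide 1 alone (0.289 and 0.156). The call of Il22 also ended without control mouse 1 or 2 or restricted mouse 2 or 3 (limma adjusted p = 0.0768, 0.0813, 0.0735 and 0.0756) and with no background filter (0.0503).

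Other members of the IL-10 family did not pass. Il20 differed by -0.02 and Il28b by 0.34, both with overlapping diets. Il10, the anti-inflammatory founder of the family, was well above background on control mouse 2 alone, with levels of -6.79, -4.12 and -6.47 against -5.96, -6.11 and -6.09. The remaining tested cytokines also had overlapping diets. Il15, which sustains NK cells, measured -4.46, -4.48 and -3.37 against -4.60, -3.56 and -4.06, a difference of 0.03 (SE 0.39, limma adjusted p = 0.963) whose sign turned in several alternatives. Il34, a second ligand of the macrophage receptor Csf1r, measured -1.07, -1.13 and -0.86 against -1.38, -1.27 and -1.01, a difference of -0.21 (SE 0.18, adjusted p = 0.436). Il16, a T cell attractant, differed by -0.55 (SE 0.35). Il17d differed by 0.38 (SE 0.37) on its brighter probe, while its dimmer probe was higher by 1.18 (SE 0.17, adjusted p = 0.0032 in the limma fit of every probe). The T cell cytokines Il4 (-6.10, -5.76 and -5.34 against -5.15, -5.18 and -5.59) and Il13 (-7.35, -7.66 and -7.44 against -7.13, -6.96 and -6.96) and the lymphocyte survival factor Il7 (-5.37, -6.75 and -6.47 against -7.32, -6.96 and -6.78) stayed under the background limit in all 6 mice. No order is read from these values. Il17f was well above background in 1 mouse of each diet and was not tested.

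**Figure D2:**
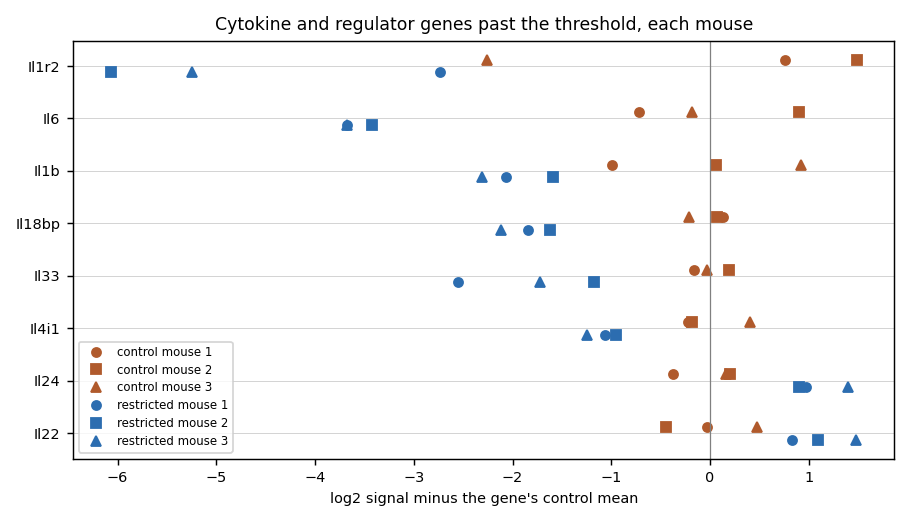
Log2 signal minus the gene's control mean (x axis) in each mouse for the cytokine and regulator genes past the threshold, with control mice in brown and restricted mice in blue and a symbol per mouse number. Il6 lies near -3.59 in the restricted mice, Il24 and Il22 lie above 0, and Il1r2 is spread widely in both diets.

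Of the 29 receptor chains tested, 13 were lower and 3 higher, beside 12.8% lower and 14.6% higher over all features. Of the 29, 8 passed through the control arrays alone, and all 8 are among the 13. Of the 21 well above background on all 6 arrays, 5 were lower and 3 higher in the same fit. The largest difference was in Il1rl1, which encodes ST2, the IL-33 receptor, found on mast cells, type 2 lymphoid cells and regulatory T cells. Its levels were -0.88, -1.07 and -0.36 in control mice and -6.49, -4.72 and -5.00 in restricted mice (chr1:40522187-40522246, mm9). Restricted mouse 2 alone of its diet was well above background. Il1rl1 was at least 17.3-fold lower (limma adjusted p = 0.000822). Such a bound sets each dim array at the lowest signal of any probe well above background on it, or at the probe's own signal if higher. The limit differs between probes and can lie above that lowest signal, so these bounds are approximate and can be too large. For dim genes, "at least" is meant in this sense below. In restricted mouse 1 that lowest signal was -5.12, yet Il2ra, at -4.99, was not well above background. The fitted difference of Il1rl1, -4.63, became -1.91 with normexp background correction. A second probe of Il1rl1 (chr1:40520014-40520073) was well above background in only 2 control mice and in restricted mouse 2, where it stood highest, at -0.56 against -4.73, -6.18 and -4.41 in the controls. The remaining probe, for another transcript (NM_010743), was not well above background on any array.

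The other IL-1 family receptors moved in different directions. Il18r1, the binding chain for IL-18, measured -3.06, -3.22 and -3.85 in control mice and was not well above background in any restricted mouse (-5.98, -6.43 and -5.28), which makes it at least 2.94-fold lower (limma adjusted p = 0.00258, and 0.131 with normexp background correction). Its partner Il18rap measured -3.32, -3.32 and -5.33 against -7.05, -6.88 and -5.71, was well above background in 2 control mice and was not tested. Il1rap, the gene of the accessory chain shared by the IL-1 and IL-33 receptors, was higher on its brightest probe instead. It stood at 2.17, 1.96 and 2.08 in control mice and at 3.07, 2.64 and 3.10 in restricted mice (chr16:26701498-26701557). The diets did not overlap, and the difference was 0.87 (SE 0.19, limma adjusted p = 0.0163). A second Il1rap probe was higher by 1.27 (SE 0.30, adjusted p = 0.0198 in the limma fit of every probe). The remaining Il1rap probe, for another transcript, was not well above background on any array. The Il1rap call ended with slide as a block (adjusted p = 0.0659), on slide 1 alone (0.0904), and without control mouse 2, restricted mouse 1 or restricted mouse 3 (0.0643, 0.0507 and 0.0539, all from limma).

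Il1r1, the signalling receptor of IL-1, depended on 1 mouse. Its levels were 3.90, 3.89 and 2.65 in control mice and 3.72, 1.28 and 1.35 in restricted mice. Restricted mouse 1 lay among the controls, and restricted mice 2 and 3 lay below them all. The difference of -1.37 (SE 0.70) did not pass (limma adjusted p = 0.191), it was -2.17 without restricted mouse 1 (adjusted p = 0.0159) and -1.91 with array weights (adjusted p = 0.0408), and with slide as a block its sign turned, to 0.24.

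Of 7 tested receptor chains of the IL-6 and IL-12 family, 2 were lower and 1 higher, beside 12.8% and 14.6% over all features. The lower genes, Il27ra and Il31ra, both passed the filter through the control arrays alone. Il6ra, the binding chain for IL-6, measured 4.82, 4.52 and 4.75 in control mice and 5.72, 3.96 and 4.14 in restricted mice. Restricted mouse 1 was the highest of all 6 and restricted mice 2 and 3 were the lowest. The difference was -0.09 (SE 0.45, limma adjusted p = 0.902). It was 1.03 with slide as a block (adjusted p = 0.0458) and on slide 1 alone (adjusted p = 0.0926, limma). Il6st, which encodes gp130, measured 1.99, 2.12 and 1.18 against 1.02, 1.78 and 1.09, a difference of -0.47 (SE 0.32, limma adjusted p = 0.324) with overlapping diets.

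Il12rb1, a chain of the IL-12 and IL-23 receptors, was higher. Its levels were -2.77, -3.17 and -2.38 in control mice and -1.06, -1.67 and -1.38 in restricted mice (chr8:73345261-73345320), with no overlap. The difference was 1.40 (SE 0.26, limma adjusted p = 0.00871), and 0.92 with normexp background correction. Its second probe differed by 0.34 (SE 0.20, adjusted p = 0.252 in the limma fit of every probe), so the probes disagree. Its partner Il12rb2 differed by 0.58 (SE 0.25, limma adjusted p = 0.129), without overlap. Il27ra (-4.62, -4.42 and -4.62 in control mice) and Il31ra (-4.12, -5.08 and -4.46), receptor chains for IL-27 and IL-31, were dim in control mice and not well above background in any restricted mouse, where Il27ra measured -6.25, -5.43 and -5.59 and Il31ra -5.70, -5.17 and -5.69. The approximate bound was 1.30-fold lower for each (limma adjusted p = 0.0123 and 0.0466). A bound this small gives no sure size, because the limit of these probes can be higher. With normexp background correction their signs turned, to 0.025 and 0.050. The Il31ra call also ended with quantile normalization (adjusted p = 0.0689), median scaling (0.0621), no background filter (0.0818) and array weights (0.102). It ended too with slide as a block (adjusted p = 0.136), on slide 1 alone (0.17) and without any 1 mouse except control mouse 2 (0.0584 to 0.136, limma). Il11ra1, the IL-11 receptor, differed by 0.32 (SE 0.19), with overlap.

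Of the 10 tested receptor chains in the group that signals with the common gamma chain or holds the IL-3, IL-5 and IL-13 receptors, 7 were lower and 0 higher. Of the 10, 3 passed through the control arrays alone. Among the chains well above background on all 6 arrays, 4 of 7 were lower, beside 12.8% over all features. Il2rg, the common gamma chain itself, is a subunit of the receptors for IL-2, IL-4, IL-7, IL-9, IL-15 and IL-21. Its levels were -1.99, -1.70 and -2.94 in control mice and -4.74, -4.42 and -4.76 in restricted mice (chrX:98460130-98460189). All restricted mice lay below all controls, and Il2rg was 5.39-fold lower (difference -2.43, SE 0.33, limma adjusted p = 0.0025), or -0.86 with normexp background correction. Il7r, the IL-7 receptor of lymphocytes, measured -2.09, -1.87 and -3.47 against -5.33, -5.19 and -4.35 (chr15:9435976-9436035). It was well above background in 1 restricted mouse, with a limma adjusted p of 0.00877.

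Il21r, the IL-21 receptor, measured -3.48, -3.49 and -3.06 in control mice and was not well above background in any restricted mouse (-7.06, -6.12 and -4.92). It was at least 3.00-fold lower (limma adjusted p = 0.0085, and 0.255 with normexp background correction). Il2ra, the high-affinity chain of the IL-2 receptor, stood at -4.80, -4.52 and -4.61 in control mice and was also below the limit in all restricted mice, at -4.99, -5.79 and -5.73. Its approximate bound was 1.18-fold lower (limma adjusted p = 0.0435), which likewise gives no sure size. With normexp background correction the sign of Il2ra turned, to 0.062. Its call ended with quantile normalization (adjusted p = 0.0784), median scaling (0.0764) and no background filter (0.0764), with slide as a block (0.421), on slide 1 alone (0.54) and without any 1 mouse except restricted mouse 1 (adjusted p = 0.0796 to 0.141). Il2rb, shared by the IL-2 and IL-15 receptors, measured -3.49, -2.38 and -2.26 against -4.36, -4.41 and -3.36 and did not pass (difference -1.33, SE 0.42, limma adjusted p = 0.0538). Il15ra differed by 0.18 (SE 0.23) and its dimmer probe by 0.81 (SE 0.28, adjusted p = 0.0687 in the limma fit of every probe).

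Il4ra and Il13ra1 form the receptor through which IL-4 and IL-13 act on macrophages and stellate cells. Il4ra levels were 0.00, 0.10 and -0.27 in control mice and -1.15, -1.96 and -1.92 in restricted mice (chr7:132722922-132722981), with a clear gap between the diets. Il4ra was 3.07-fold lower (difference -1.62, SE 0.26, limma adjusted p = 0.00491), and on slide 1 alone it did not pass (-1.09, adjusted p = 0.0859). Its other probe (chr7:132712550-132712609) differed by -0.52 (SE 0.31, adjusted p = 0.263 in the limma fit of every probe). Il13ra1 measured -1.27, -2.03 and -2.29 against -2.54, -3.01 and -3.21 (chrX:33710154-33710213), narrowly without overlap. The difference was -1.06 (SE 0.31, limma adjusted p = 0.0443). That call was lost with normexp background correction (adjusted p = 0.0951), quantile normalization (0.0846), median scaling (0.0809) and no background filter (0.0792). It was also lost with slide as a block (-0.68, 0.349), on slide 1 alone (0.428) and without control mouse 1 or 2 or restricted mouse 2 or 3 (0.106, 0.0921, 0.124 and 0.123, limma). Il3ra, the binding chain for IL-3, measured 0.75, 1.01 and 0.97 against -0.29, -0.12 and 0.29 (chr14:15187898-15187957), a difference of -0.95 (SE 0.21, limma adjusted p = 0.0151). The Il3ra call ended on slide 1 alone (adjusted p = 0.0602) and without control mouse 2 or restricted mouse 2 (0.0597 and 0.06). Il5ra differed by -0.31 (SE 0.33), with overlap, and Il9r was well above background in 2 control mice only.

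In the IL-10 receptor family, Il10ra was lower. It encodes the ligand-binding chain of the IL-10 receptor, found mainly on blood-derived cells. Its levels were 0.65, 0.58 and 0.95 in control mice and -2.37, -1.59 and -1.35 in restricted mice (chr9:45062237-45062296). The groups lay far apart, and Il10ra was 5.65-fold lower (difference -2.50, SE 0.29, limma adjusted p = 0.00131). Il10rb, the broadly expressed second chain that also serves IL-22 and interferon-lambda, measured -0.77, -0.53 and 0.19 against -1.83, -0.98 and -0.93 and did not pass (difference -0.88, SE 0.34, limma adjusted p = 0.102). Il28ra, the interferon-lambda receptor, measured -3.47, -3.90 and -4.15 against -4.67, -4.80 and -5.56 and was well above background in 2 restricted mice. It was at least 1.89-fold lower (limma adjusted p = 0.0265). The call was lost with normexp background correction (0.777), with quantile normalization (0.0595), with no background filter (0.0512), with slide as a block (0.237), on slide 1 alone (0.226) and without control mouse 1 or 2 or restricted mouse 2 or 3 (adjusted p = 0.0862, 0.0733, 0.055 and 0.0568). Il20rb differed by -0.85 (SE 0.35), with overlap. Il22ra1, which makes hepatocytes able to answer IL-22, was well above background in 1 control and 2 restricted mice and was not tested, with levels of -6.01, -4.98 and -5.66 against -4.71, -5.13 and -4.54.

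Of the IL-17 receptors, Il17rc was higher. Its levels were 2.67, 2.78 and 3.09 in control mice and 3.65, 3.58 and 3.80 in restricted mice (chr6:113433073-113433132), without overlap. The difference was 0.83 (SE 0.18, limma adjusted p = 0.0161), and a second Il17rc probe gave 0.92 (SE 0.18, adjusted p = 0.0101 in the limma fit of every probe). The Il17rc call ended with slide as a block (adjusted p = 0.114), on slide 1 alone (0.185) and without control mouse 1 or 2 or restricted mouse 3 (0.0597, 0.0623 and 0.0536). Il17ra, its partner in the IL-17A receptor, measured -0.20, -1.39 and -1.56 against -1.85, -2.61 and -3.20. The difference of -1.50 (SE 0.46) did not pass (limma adjusted p = 0.0502), and it was -1.85 without restricted mouse 1 (adjusted p = 0.0342) and -1.76 without control mouse 3 (adjusted p = 0.0463). It also passed with array weights (adjusted p = 0.0226) and among features well above background on all 6 arrays (0.0492, limma). Il17rb differed by -0.12 and Il17re by 0.17, both with overlap, and Il17rd was well above background in 2 control mice only.

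**Figure D3:**
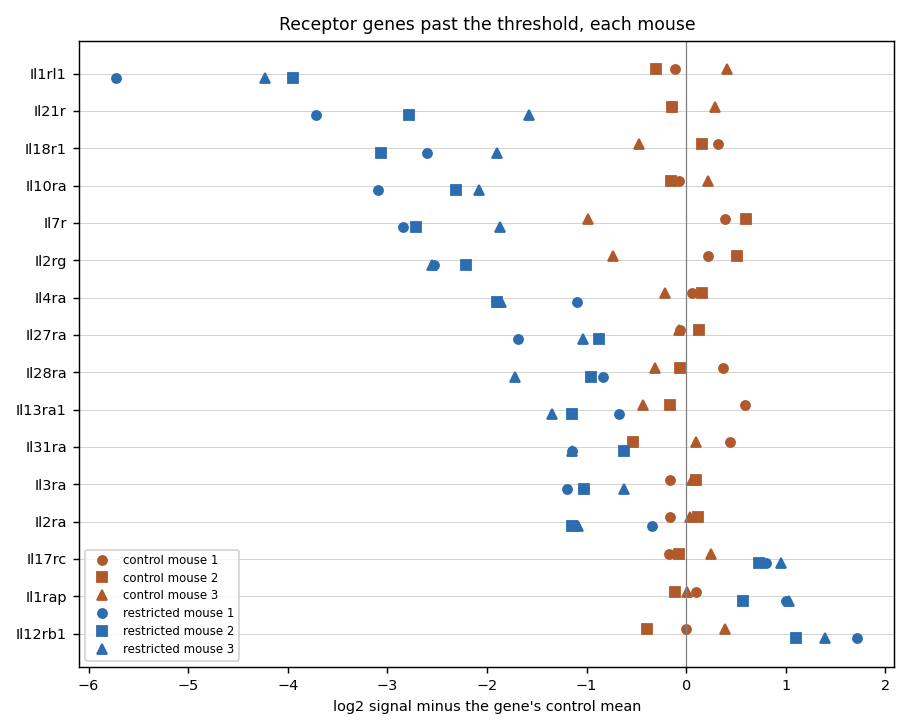
Log2 signal minus the gene's control mean (x axis) in each mouse for the 16 receptor genes past the threshold, with control mice in brown and restricted mice in blue and a symbol per mouse number. Il1rl1 is lowest at the top and Il12rb1 highest at the bottom, and signals of Il18r1, Il21r, Il27ra, Il31ra and Il2ra in restricted mice are below the background limit, where the signs of Il27ra, Il31ra and Il2ra turned with normexp background correction.

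Of the 5 regulators tested, 3 were lower and 0 higher, beside 12.8% lower and 14.6% higher over all features. Of the 4 well above background on all 6 arrays, 2 were lower. Il18bp, a secreted protein that holds IL-18 inactive, measured 1.33, 1.28 and 0.99 in control mice and -0.64, -0.42 and -0.92 in restricted mice (chr7:109164100-109164159). The spread within each diet was small beside the gap, and Il18bp was 3.63-fold lower (difference -1.86, SE 0.20, limma adjusted p = 0.00102). Il4i1, an amino acid oxidase secreted by antigen-presenting cells, measured -0.59, -0.54 and 0.05 against -1.42, -1.31 and -1.60. Its difference was -1.09 (SE 0.22, limma adjusted p = 0.0125), which did not pass with slide as a block (adjusted p = 0.0917) or on slide 1 alone (0.141).

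Il1r2, the decoy receptor for IL-1 that neutrophils carry, had levels of 0.89, 1.61 and -2.13 in control mice and -2.62, -5.95 and -5.13 in restricted mice (chr1:40180014-40180073). Control mouse 3 and restricted mouse 1 lay close together, and only restricted mouse 1 of its diet was well above background. Il1r2 was at least 18.6-fold lower (fitted difference -4.69, SE 1.16, limma adjusted p = 0.0241), and the fitted difference was -2.62 with normexp background correction. The call ended with slide as a block (-2.74, adjusted p = 0.241), on slide 1 alone (0.289) and without control mouse 1 or 2 or restricted mouse 2 or 3 (0.0804, 0.0797, 0.0764 and 0.0677, limma). The summed signal of 10 neutrophil markers was 108, 72.1 and 30.9 times the array's 75th percentile in control mice 1 to 3 and 27.4, 4.90 and 5.26 in restricted mice 1 to 3. For Il1r2 and for this sum alike, control mouse 3 was the lowest control and restricted mouse 1 the highest of its diet. Not every single marker had that order: Mpo was lowest in control mouse 2 and, of the restricted mice, in mouse 1. Among others, Elane was lowest of the controls in mouse 1, and Camp was highest of the restricted mice in mouse 2. In control mice the sum was led by S100a9 and S100a8. The markers' part in the Il1r2 result was not tested. Il1rn, the IL-1 receptor antagonist, measured -3.24, -3.64 and -4.10 against -4.14, -3.61 and -4.01, a difference of -0.26 (SE 0.27, limma adjusted p = 0.506) that became 0.068 with normexp background correction. Il13ra2, a decoy for IL-13, differed by 0.83 (SE 0.46), with overlap.

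**Figure D4:**
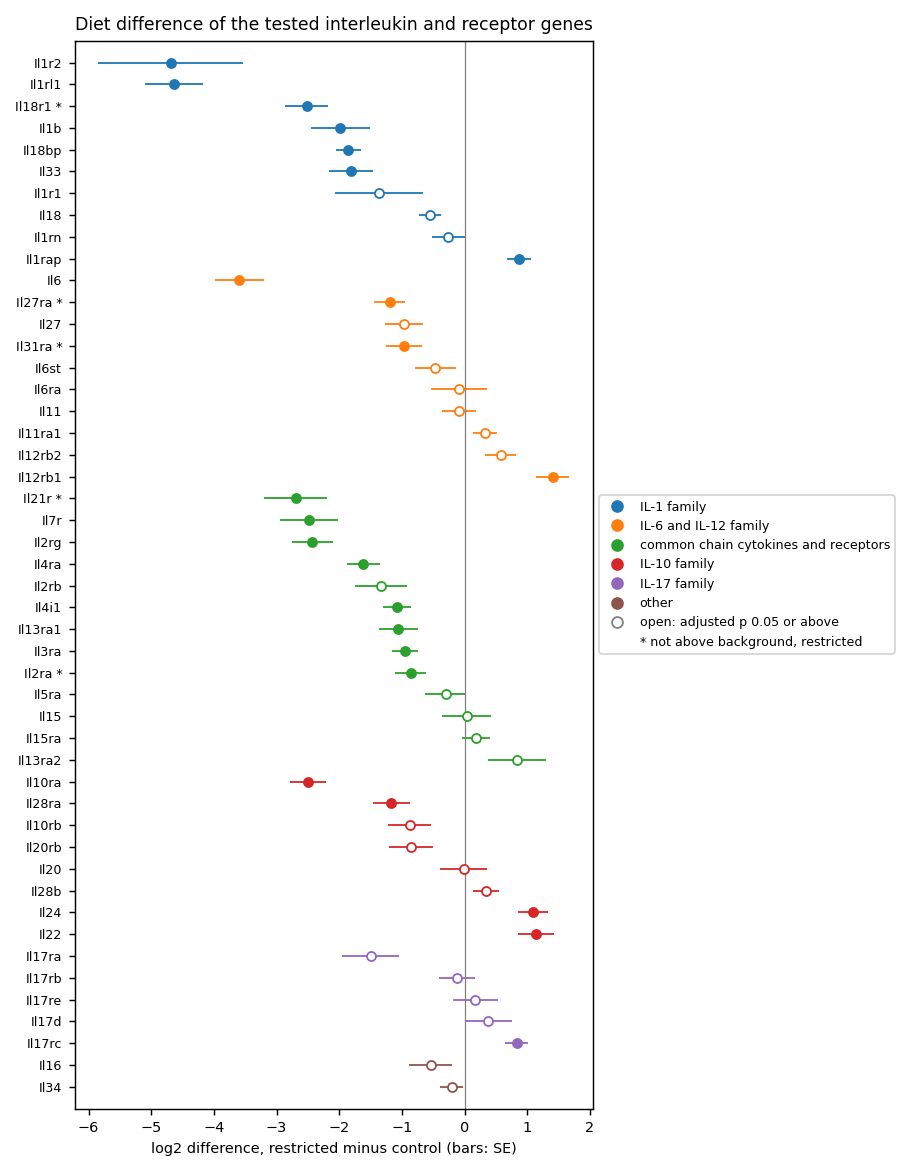
Log2 difference between the diets (restricted minus control, x axis) with its SE for the 48 tested genes, coloured by family, where filled points passed an adjusted p under 0.05. Filled points left of 0 number 19 and right of 0 number 5, and for starred genes, which no restricted array measured above background, the point gives no size (normexp background correction turned the signs of Il27ra, Il31ra and Il2ra).

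By family, the IL-1 group had 6 genes lower and 1 higher of 10 tested, the IL-6 and IL-12 group 3 lower and 1 higher of 10, and the common-chain group 8 lower and 0 higher of 13. The IL-10 group had 2 lower and 2 higher of 8, and the IL-17 group 0 lower and 1 higher of 5. These counts rest on the fit over all 6 arrays, where 12.8% of all features were lower and 14.6% higher. They include genes that passed the filter through control arrays alone, 3 each in the first 3 groups and 2 in the IL-10 group. Of the 24 calls, 13 remained with slide as a block and 11 on slide 1 alone. The 11 were Il6, Il33, Il1rl1, Il18r1, Il10ra, Il2rg, Il7r, Il21r, Il27ra, Il12rb1 and Il18bp, and all 11 were among the 13. With slide as a block, 12 of the 48 genes were lower and 2 higher, and on slide 1 alone 10 and 1, where 9.65% and 8.22% of all features were lower and 5.71% and 3.35% higher.

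Several genes lie next to each other. On mm9 chromosome 1, the probes of Il1r2, Il1r1, Il1rl2, Il1rl1, Il18r1 and Il18rap fall within chr1:40180014-40605788, and of these Il1r2, Il1rl1 and Il18r1 were lower, Il1r1 did not pass, and Il1rl2 (well above background in 1 control mouse) and Il18rap were not tested. Farther along, chr1:132783875-132921002 holds the probes of Il24, Il20, Il19 and Il10, and of these Il24 was higher, Il20 did not pass and the others were not tested. Il4ra and Il21r, both lower, have probes within chr7:132722922-132776784. The T helper type 2 cytokine cluster (Il4, Il13, Il5 and Il3, chr11:53426076-54078646) was below the background limit on all arrays.

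The signalling proteins behind these receptors were counted as lists, beside 12.8% lower and 14.6% higher over all features. Of 11 Janus kinases and STATs, 4 were lower and 0 higher (median difference -0.12, beside 0.12 over all features). Jak2 measured 1.56, 1.86 and 1.72 against 0.50, 0.42 and 0.75 (difference -1.15, SE 0.18, limma adjusted p = 0.00428). Jak3, the kinase bound to the common gamma chain, fell by 0.75 (SE 0.19), and Stat3, which acts after IL-6, fell by 0.82 (SE 0.23). Stat4, which acts after IL-12, was well above background in 1 restricted mouse and fell by at least 2.28 with the dim arrays set at their limit (limma adjusted p = 0.0101). Of 9 tested feedback inhibitors, 4 were lower and 0 higher (median -0.31). Socs1 measured -1.58, 0.18 and -1.07 against -4.05, -3.46 and -3.21 (difference -2.75, SE 0.46, limma adjusted p = 0.00573). Socs3, which is induced by IL-6 and switches off gp130, measured 4.16, 4.37 and 4.11 against 3.43, 2.07 and 1.73 (difference -1.81, SE 0.42, limma adjusted p = 0.0201). Restricted mouse 1 was again nearest the controls for Socs3. Socs2 fell by 1.09 and Ptpn6 by 0.98.

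Of 14 genes of IL-1 family signalling and processing, 5 were lower and 0 higher (median -0.50), beside 12.8% lower over all features. Of the 5, 2 were not well above background on every restricted array. Casp1, the protease that cuts IL-1 beta and IL-18, measured 0.41, 0.79 and 0.89 against -1.47, -0.96 and -1.01 (difference -1.85, SE 0.22, limma adjusted p = 0.00152). Pycard, the inflammasome adaptor, fell by 1.81 (SE 0.19), and the inflammasome sensor Nlrc4, well above background in 1 restricted mouse, fell by at least 1.78 with the dim arrays set at their limit (limma adjusted p = 0.00746). Irak3, a brake on this pathway, fell by 2.01 (SE 0.40). The adaptor Myd88 differed by -0.50 (SE 0.25, limma adjusted p = 0.181) and did not pass.

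Related cytokines and receptors outside the name rule gave 8 lower and 3 higher of 15 tested (median -1.35), beside 12.8% and 14.6% over all features. Of the 10 receptor chains among them, 6 were lower and 1 higher, and of the 5 cytokines or cytokine subunits, 2 were lower and 2 higher. The GM-CSF receptor chain Csf2ra measured 4.01, 4.04 and 4.31 against 0.72, 1.10 and 1.27 (difference -3.09, SE 0.21, limma adjusted p = 0.000333). The common beta chain Csf2rb, which the receptors for IL-3 and IL-5 use, fell by 3.27 (SE 0.25) and the mouse IL-3 receptor chain Csf2rb2 fell by 3.41 (SE 0.24), though these are near-identical copies whose probes may share signal. Csf1r, the receptor of Il34, fell by 2.22 (SE 0.22). Of the 3 interferon-gamma genes in the list of partners, 2 were tested, and Ifngr1 fell by 1.75 (SE 0.19, limma adjusted p = 0.000971).

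Genes known to respond to interleukins were also counted. Of 10 tested genes that IL-4 and IL-13 induce in macrophages, 8 were lower and 0 higher (median -2.93), beside 12.8% lower over all features. Of the 8, Retnla, Chil4 and Pdcd1lg2 passed the filter through the control arrays alone, with 1, 0 and 1 restricted mice well above background. Among the 7 genes of the list well above background on all 6 arrays, 5 were lower and 0 higher (median -1.87). Ccl17, a chemokine, measured 4.55, 4.78 and 4.39 against -4.20, -2.22 and -3.20 (difference -7.78, SE 0.46, limma adjusted p = 0.000273). Clec10a, a macrophage lectin, fell by 5.19 (SE 0.43). Arg1, which hepatocytes also express, differed by 0.32 (SE 0.35) and did not pass. Of 17 tested genes of the hepatocyte response to IL-6, 4 were lower and 0 higher (median -0.95). Of the 17, 11 were saturated on at least 1 array, and the 6 that were not had 2 lower (median -1.52). Orm3, an acute-phase glycoprotein, measured 6.41, 6.18 and 6.32 against 3.35, 4.16 and 2.30 (difference -3.03, SE 0.44, limma adjusted p = 0.00311). Saa3 fell by 2.08 (SE 0.46), Orm1, saturated in 1 control mouse, by at least 1.02 and Lcn2, saturated in all 3 control mice, by at least 3.96. Saa1 and Saa2 did not pass, with 5 of 6 arrays saturated.

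Cell type markers were counted in the same way, beside 12.8% lower and 14.6% higher over all features. All 12 macrophage and Kupffer cell markers were lower, and 1 of them was not well above background on every restricted array. Their summed signal was 220 to 297 times the array's 75th percentile in control mice and 40.2 to 58.4 in restricted mice. Of 10 neutrophil markers, 6 were lower and 1 was higher (30.9 to 108 against 4.90 to 27.4). Of the 6 lower, 3 were not well above background on every restricted array. Among the 6 neutrophil markers well above background on all 6 arrays, 3 were lower and 1 higher. T cell markers gave 4 lower of 7 tested (29.0 to 45.6 against 24.7 to 36.1, a sum led by Cd4, which was not called). Of these 4, 1 was not well above background on every restricted array. Dendritic cell markers gave 3 lower of 6 (121 to 181 against 143 to 218, a sum led by Siglech, which was saturated on all 6 arrays). NK cell markers gave 1 lower of 5 (1.15 to 1.68 against 0.752 to 1.17). B cell markers gave 0 calls of 3 (0.564 to 0.983 against 0.417 to 0.871). Among mast cell, basophil and eosinophil markers, Siglecf was lower of 2 tested (0.642 to 0.837 against 0.275 to 0.358). It was not well above background on any restricted array and passed the filter through the control arrays alone. The defining markers Cpa3, Cma1, Fcer1a and Ms4a2 were not well above background on any array.

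Of 4 tested innate lymphoid cell markers, Gata3 and Areg were lower. Both passed the filter through the control arrays alone and were not well above background on any restricted array. Rora differed by 0.05 (SE 0.18) and did not pass, and the remaining marker is not reported here. Among the innate lymphoid cell markers well above background on all 6 arrays, 0 were lower. Stellate cell markers gave 3 lower of 8 (23.8 to 28.8 against 3.46 to 9.35) and bile duct markers 3 lower of 5 (4.31 to 5.07 against 0.678 to 1.61). Of the 3 lower bile duct markers, 2 were not well above background on every restricted array. Among the 3 bile duct markers well above background on all 6 arrays, 1 was lower. Sinusoidal endothelium markers gave 4 higher of 7 (21.5 to 33.1 against 39.6 to 53.4), beside 14.6% over all features. Hepatocyte markers gave 1 higher of 8 (652 to 850 against 779 to 998), which is near that share. In the hepatocyte sum, Alb, Ttr and Serpina1a were saturated on all 6 arrays. The part of these marker shifts in the interleukin and receptor results was not tested.

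**Figure D5:**
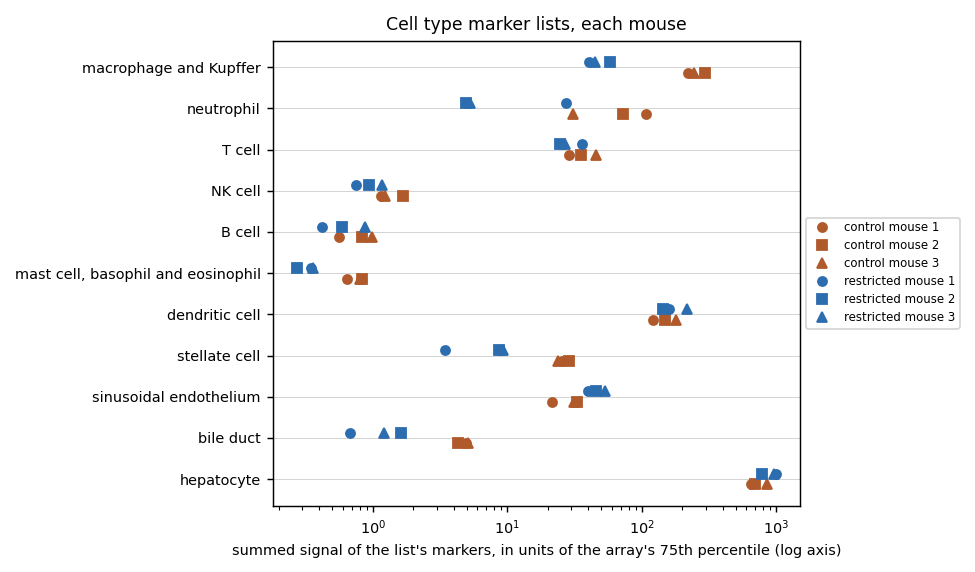
Summed signal of each marker list in each mouse, in units of the array's 75th percentile on a log axis, with control mice in brown and restricted mice in blue. Macrophage, stellate cell and bile duct markers lie lower in all restricted mice, the sinusoidal endothelium sum lies higher, and restricted mouse 1 has the highest neutrophil sum of its diet at 27.4.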

How the data were processed

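The authors deposited scanner files with the intensity of each spot of 1-colour Agilent arrays (design 026655, mm9 probe positions), 1 array per mouse and 3 mice per diet. Per the file headers, Feature Extraction 10.7.3.1 made the processed signal, but version 9.3.2.1 is the one given by the submitters' processing notes. A deposited value table of the same arrays holds the same intensity values on a linear scale, not centred (column medians 27.5 to 52.1).

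Control spots and spots flagged as outliers (127 to 251 of 43020 per array) were left out, signals were taken to log2, averaged over the spots of each probe and set relative to the 75th percentile of their array. The filter on background kept 24234 of 39429 probes, and the brightest probe per gene name gave 19616 features, named from the files and through RefSeq accessions (26055 probes matched, and 4 probes of the genes reported here did not). The features were fitted with limma 3.58.1 in R 4.3.3 and data.table (version 1.17.8), with Benjamini-Hochberg adjustment over all of them and a threshold of 0.05. The script was tested on simulated data. The genes, lists and tests were chosen with earlier results of these data known. Every called gene and a set of well-known interleukins and receptors is given by mouse, and up to 4 called genes with the smallest p are given per list. Probe positions are those of the files. The exon or UTR of a probe was not looked up. A marker of innate lymphoid cells, and the sum over that list, are not reported here. The labels name no batch, the slides are those of the file headers, and 3 arrays per diet limit the precision.

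Alternatives were normexp background correction with an offset of 50 (which shrinks differences of dim probes), scaling by quantiles or by the median, the values of the deposited table, array weights, a fit of every probe, and the filter dropped or made stricter. Slide and mouse number were each tried as a block, slide 1 was fitted by itself, and each mouse was left out in turn.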

Additional observations from a re-analysis of the deposited data

Results flagged for a closer look

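Among probes that did not stand for their gene in the fit, because a brighter probe did or because they failed the background filter, a few stood more than 1 log2 unit above every control mouse in a mouse on the restricted diet. The probes of Il17d and Il1rap given here were called in the fit of every probe, and those of Il17f and Il1rl1 were not tested. The dimmer probe of Il17d measured -2.11 in restricted mouse 2 and -1.93 in restricted mouse 3, where the highest control mouse was at -3.12. The probe of Il17f measured -3.89 in restricted mouse 2, where the highest control mouse was at -5.41. A second probe of Il1rap measured -3.07 in restricted mouse 3, against -4.11 in the highest control mouse. A second probe of Il1rl1 measured -0.56 in restricted mouse 2, against -4.41 in the highest control mouse, while the brighter probe of the gene was low in that mouse.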

How the results depend on the processing

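The deposited value table and the fit of every probe ended none of the 24 calls, and neither did the limit to probes well above background on all 6 arrays for the 15 called genes it kept. Calls ended for 9 genes with normexp background correction, 4 with quantile normalization, 3 with median scaling, 5 with no background filter, 1 with array weights, 11 with slide as a block and 13 on slide 1 alone. Leaving out 1 mouse ended 2 to 9. The cause was not tested. With normexp background correction the signs of Il27ra (0.025), Il31ra (0.050), Il2ra (0.062) and Il1rn (0.068) turned. Il6ra turned with median scaling (0.00026), with slide as a block or on slide 1 alone (1.03) and without restricted mouse 2 or 3 (-0.65 to 0.23 over the mice left out). Il15 turned to -0.49 with slide as a block or on slide 1 alone and ranged from -0.23 to 0.40 over the mice left out. Il1r1 turned to 0.24 with slide as a block or on slide 1 alone. Cytokines called higher numbered 0 with normexp, with slide as a block and on slide 1 alone, and 1 to 2 over the mice left out. Cytokines called lower numbered 5 with normexp, quantile normalization and array weights, and 2 to 3 over the mice left out. Receptors called lower numbered 6 with normexp, 6 among probes well above background on all 6 arrays and 7 on slide 1 alone, and 8 to 15 over the mice left out. Receptors called higher numbered 1 on slide 1 alone and 1 to 3 over the mice left out, and regulators called lower numbered 1 with slide as a block and on slide 1 alone. With mouse number as a replicate block 20 genes were lower and 5 higher. Il31ra and Il2ra lost their calls (adjusted p = 0.0688 and 0.0545, limma), while Il10rb and Il17ra were among the genes that gained one. The numbers share no label that pairs the mice, and correlations of same-numbered mice's deviations were 0.38, -0.0022 and 0.48. Over the whole array the features called numbered 5386, and 3013 with slide as a block, 2269 on slide 1 alone and 3357 to 5889 over the mice left out. The limit of detection was set by signal over background.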

Other observations

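Related cytokines and receptor chains not yet given with values moved in both directions, and the genes given here were chosen after their values were seen. Ebi3, the partner subunit of Il27, measured 0.22, 0.69 and 0.64 in control mice and -2.57, -1.57 and -2.22 in restricted mice, a difference of -2.64 (SE 0.29, limma adjusted p = 0.00107). Osmr, which pairs with gp130 in the oncostatin M receptor and with Il31ra in the IL-31 receptor, measured 1.98, 1.44 and 1.54 against -0.14, -0.08 and -0.16. It fell by 1.78 (SE 0.20, limma adjusted p = 0.00112). Clcf1, a gp130 cytokine, fell by 1.71 (SE 0.27), and Crlf2, the TSLP receptor chain, fell by 1.35 (SE 0.21).

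Lifr, the gp130 partner in the LIF receptor, was higher instead, at 1.89, 2.15 and 1.36 in control mice and 3.63, 3.27 and 3.02 in restricted mice (SE of the difference 0.27, limma adjusted p = 0.00713). The gp130 cytokines Ctf1 and Cntf were higher too, Ctf1 by 0.87 (SE 0.18) and Cntf by 0.59 (SE 0.17). No alternative setting was run for these genes.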
